A study of Mus musculus with 20 samples.

Results

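The white adipocyte genes followed here were 10 transcripts that mature fat cells carry at a high level: Adipoq, Lep, Retn, Cfd, Plin1, Cidec, Lipe, Pnpla2, Fabp4 and Pparg. They were read as every non-control probe of the array that bore one of these names, with Plin1 under its older array name Plin. That gave 15 probes of the 41174 on the array, and 10 genes of 27670. The samples were whole tracheas of adult mice, trimmed of excess connective tissue, and the 20 arrays formed 4 groups of 5 animals. Uninjured wild-type mice were of the C57/Bl6 strain, and uninjured Myd88KO mice lacked Myd88, the adaptor through which most Toll-like receptors and the interleukin-1 receptor signal, in every cell. Injured wild-type and injured Myd88KO mice had received 2% polidocanol, a detergent that strips the airway epithelium, 3 days before. The labels give an age of 4 months and a weight of 25 to 30 g for all groups. The knockout line had been back-crossed to C57/Bl6 mice for several generations and was kept by mating knockouts with each other. Its colony was bred apart from the wild-type colony, so genotype and colony cannot be told apart. Mice of both sexes were used and the labels give no sex per sample.

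White adipocytes store triglyceride in a single large droplet and release fatty acids when other tissues need fuel. The droplet is coated by perilipin 1, enlarged by Cidec and emptied by the lipases Pnpla2 and Lipe. The cell secretes hormones, among them adiponectin and leptin, and its identity is set by the nuclear receptor Pparg together with C/EBP factors. The trachea is a cartilage tube that lies in loose connective tissue beside fat, strap muscle and thyroid, so a dissected trachea can carry adipocytes on its outer side. In bulk tissue of this kind, a change in the amount of a cell type and a change in the RNA per cell cannot be told apart.

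Promoter sequence is shown for 4 of the genes, to place the motifs searched for beside the starts. RefSeq windows of the 250 bases before a transcription start (GRCm38.p6) were at hand for 9 of the 10 genes, 13 windows in all, with Fabp4 as the gene without one. Each was searched on both strands for the C/EBP motif TTGCNNAA, the Pparg half-site AGGTCA and the full direct repeat AGGNCANAGGNCA, of which the half-site can lie inside the repeat. The 100 bases before the start are given for Lep and Plin1, which hold a C/EBP match close to the start, for the most downstream of the 3 Pparg starts, which holds another, and for Adipoq, which holds none. Capitals mark the C/EBP match.
Lep, chr6:29060121-29060220, plus strand: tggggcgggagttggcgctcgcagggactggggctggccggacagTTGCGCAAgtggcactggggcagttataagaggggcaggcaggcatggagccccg
Plin1, chr7:79732777-79732876, minus strand: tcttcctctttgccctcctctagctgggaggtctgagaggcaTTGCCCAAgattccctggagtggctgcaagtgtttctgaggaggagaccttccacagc
Pparg, chr6:115421966-115422065, plus strand: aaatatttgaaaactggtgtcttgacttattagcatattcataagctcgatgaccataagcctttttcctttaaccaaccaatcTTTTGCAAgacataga
Adipoq, chr16:23146436-23146535, plus strand: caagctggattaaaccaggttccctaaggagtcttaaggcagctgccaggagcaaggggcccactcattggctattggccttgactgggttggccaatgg

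The Lep match TTGCGCAA began at position -55 from the start and reads the same on both strands. The Plin1 match shown began at -58 and the Pparg match at -16. Over the whole 250 bases the C/EBP motif stood in 4 of 13 windows, those of Lep, Plin1, Cidec and Pparg, and in 9.56% of all 32851 windows of this length. Among other adipocyte genes, the partners described further on, it stood in 0 of 37 windows of 24 genes. The half-site AGGTCA stood in 2 of 13 windows, both of Pparg, against 14.0% of all windows. The full repeat stood in 0 of 13 windows and in 0.338% of all windows. These matches describe letters in a window and were not tested as binding sites.

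Depth and labels were examined before the comparisons. Between 57.5% and 67.8% of spots on an array were well above background, and arrays of 1 group correlated at 0.92 to 0.99. The Myd88 probe gave 2.08 ± 0.14 (SD, n = 5) in uninjured wild-type and 1.86 ± 0.17 (SD, n = 5) in uninjured Myd88KO trachea, with overlapping samples, and 2.65 ± 0.18 against 1.89 ± 0.26 (SD, n = 5 each) after injury, without overlap. The part of Myd88 that this probe covers, relative to the deletion, was not given in the sources used here. Arrays of 1 replicate number shared a slide, and the slides of replicates 1 and 5 were scanned on another day than the other 3. Xist, the RNA that coats the inactive X chromosome in female cells, was high on 13 arrays and low on 7, where the Y-linked Ddx3y was high. The low arrays were replicates 2 and 3 of uninjured wild-type, uninjured Myd88KO and injured wild-type trachea, and replicate 5 of injured Myd88KO trachea.

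All values are log2 signals scaled to the 75th percentile of their array, so 0 is the level of a probe at that percentile. Values by sample are for the brightest probe of each gene, and samples are given from replicate 1 to replicate 5, a number that names the slide and gives no order. Levels of different probes are not set against each other. Positions of probes are those of the array file, whose genome build was not given in the sources used here.

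Adipoq encodes adiponectin, a hormone that sensitises liver and muscle to insulin (probe at chr16:22816125-22816184). Its log2 signal was 4.59, 4.55, 4.01, 4.79 and 4.39 in uninjured wild-type tracheas and 5.59, 4.90, 4.71, 4.75 and 5.10 in uninjured Myd88KO tracheas. After injury it was 4.38, 3.40, 4.48, 5.26 and 4.54 in wild-type tracheas and 5.25, 3.89, 3.75, 3.29 and 4.22 in Myd88KO tracheas. The uninjured groups overlapped by 2 Myd88KO samples that lay just below the highest wild-type sample, and injured Myd88KO replicate 1 stood among the uninjured Myd88KO values.

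Lep encodes leptin, the hormone that reports fat stores to the brain, and is made mainly by white fat (probe at chr6:29005380-29005439, spotted 10 times). Its signal stood well above background on 6 of 20 arrays: 1 of 5 uninjured wild-type, 4 of 5 uninjured Myd88KO, 0 of 5 injured wild-type and 1 of 5 injured Myd88KO arrays. It did not pass the filter for testing, and at this signal a fold between groups is not given. The log2 signal ran from -6.64 to -3.56 in uninjured wild-type, from -7.03 to -3.47 in uninjured Myd88KO, from -6.94 to -6.00 in injured wild-type and from -7.53 to -2.83 in injured Myd88KO trachea. The highest value of all was that of injured Myd88KO replicate 1, and all 4 groups overlapped.

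Retn encodes resistin, a hormone that in mice is made by fat cells (probe at chr8:3618519-3619340, a span wider than the oligonucleotide). Its log2 signal was 2.15, 1.85, 0.95, 2.34 and 1.88 in uninjured wild-type tracheas and 3.13, 1.60, 1.34, 1.58 and 2.52 in uninjured Myd88KO tracheas. After injury it was 1.53, -0.24, 0.60, 2.40 and 1.02 in wild-type tracheas and 3.08, 0.74, 0.88, 0.61 and 0.78 in Myd88KO tracheas. Injured Myd88KO replicate 1 lay far above the other 4 of its group, and no pair of groups was separate.

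Cfd encodes adipsin, the complement factor D protease that fat secretes (probe at chr10:79672573-79672632). It gave 8.03, 7.66, 7.06, 7.94 and 8.40 in uninjured wild-type tracheas and 8.54, 7.26, 7.24, 7.58 and 8.19 in uninjured Myd88KO tracheas. After injury it gave 7.87, 6.47, 7.34, 8.15 and 7.78 in wild-type tracheas and 8.19, 6.84, 7.04, 6.32 and 7.22 in Myd88KO tracheas. Its mean was 7.82 in uninjured wild-type and 7.76 in uninjured Myd88KO trachea, and all groups overlapped.

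Plin1 encodes perilipin 1, the coat protein that guards the fat droplet (probe at chr7:75590467-75590526). It read 2.25, 2.64, 2.15, 3.09 and 2.51 in uninjured wild-type and 3.53, 3.52, 3.63, 3.44 and 3.12 in uninjured Myd88KO tracheas. Every uninjured Myd88KO sample lay above every uninjured wild-type sample. After injury Plin1 read 2.14, 1.39, 2.20, 3.51 and 2.39 in wild-type tracheas and 3.43, 1.81, 1.94, 2.07 and 2.75 in Myd88KO tracheas, which overlapped.

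Cidec encodes the protein that fuses small droplets into large ones (probe at chr6:113585627-113585686). It read 4.23, 4.52, 4.31, 4.91 and 4.45 in uninjured wild-type and 5.35, 4.85, 4.93, 4.98 and 4.76 in uninjured Myd88KO tracheas. After injury it read 3.94, 3.61, 4.69, 5.22 and 4.07 in wild-type tracheas and 4.95, 3.98, 3.72, 4.25 and 4.53 in Myd88KO tracheas. The uninjured groups overlapped through wild-type replicate 4, which lay above 2 of the Myd88KO samples.

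Lipe encodes hormone-sensitive lipase, which splits diglyceride (probe at chr7:22170761-22173014, a span wider than the oligonucleotide). It read -0.88, -0.93, -0.55, -0.04 and -0.27 in uninjured wild-type and 0.07, 0.33, 0.32, 0.64 and 0.08 in uninjured Myd88KO tracheas. After injury it read -0.26, -1.07, -0.34, 0.42 and -0.48 in wild-type tracheas and -0.32, -0.65, -0.26, -0.48 and -0.62 in Myd88KO tracheas. All 5 uninjured Myd88KO samples lay above all uninjured wild-type samples and also above all injured Myd88KO samples.

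Pnpla2 encodes adipose triglyceride lipase, which takes the first fatty acid from triglyceride (probe at chr7:137877295-137877354). It read 4.34, 4.01, 3.99, 4.56 and 4.52 in uninjured wild-type and 5.10, 4.93, 5.18, 4.86 and 5.04 in uninjured Myd88KO tracheas. After injury it read 4.31, 3.99, 3.91, 4.97 and 3.86 in wild-type tracheas and 4.87, 3.86, 3.85, 3.91 and 4.58 in Myd88KO tracheas. The uninjured groups were separate, and injured Myd88KO replicate 1 reached into the range of the uninjured Myd88KO samples by lying just above their lowest value.

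Fabp4 encodes the fatty acid carrier of adipocytes, which endothelial cells and macrophages also make (brightest probe at chr3:10212636-10212696). It read 7.88, 7.38, 6.94, 7.64 and 7.46 in uninjured wild-type and 8.42, 7.82, 7.88, 7.55 and 8.22 in uninjured Myd88KO tracheas. After injury it read 7.57, 5.89, 7.43, 7.30 and 7.68 in wild-type tracheas and 8.25, 6.68, 6.71, 6.98 and 7.93 in Myd88KO tracheas. Injured wild-type replicate 2 lay far below the other 4 of its group.

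Pparg encodes the nuclear receptor that drives fat cell formation and binds to many of the other genes (probe at chr6:115515909-115515968, spotted 10 times). It read 1.51, 1.16, 0.71, 1.53 and 1.40 in uninjured wild-type and 2.65, 1.82, 1.74, 2.00 and 1.95 in uninjured Myd88KO tracheas, without overlap. After injury it read 1.01, 0.21, 1.08, 1.36 and 1.35 in wild-type tracheas and 2.45, 0.56, 0.62, 0.63 and 1.86 in Myd88KO tracheas. The SD over the 10 spots of an array was 0.028 to 0.069, far less than the spread between animals, against 0.075 to 0.52 for the dim Lep spots.

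**Figure D1:**
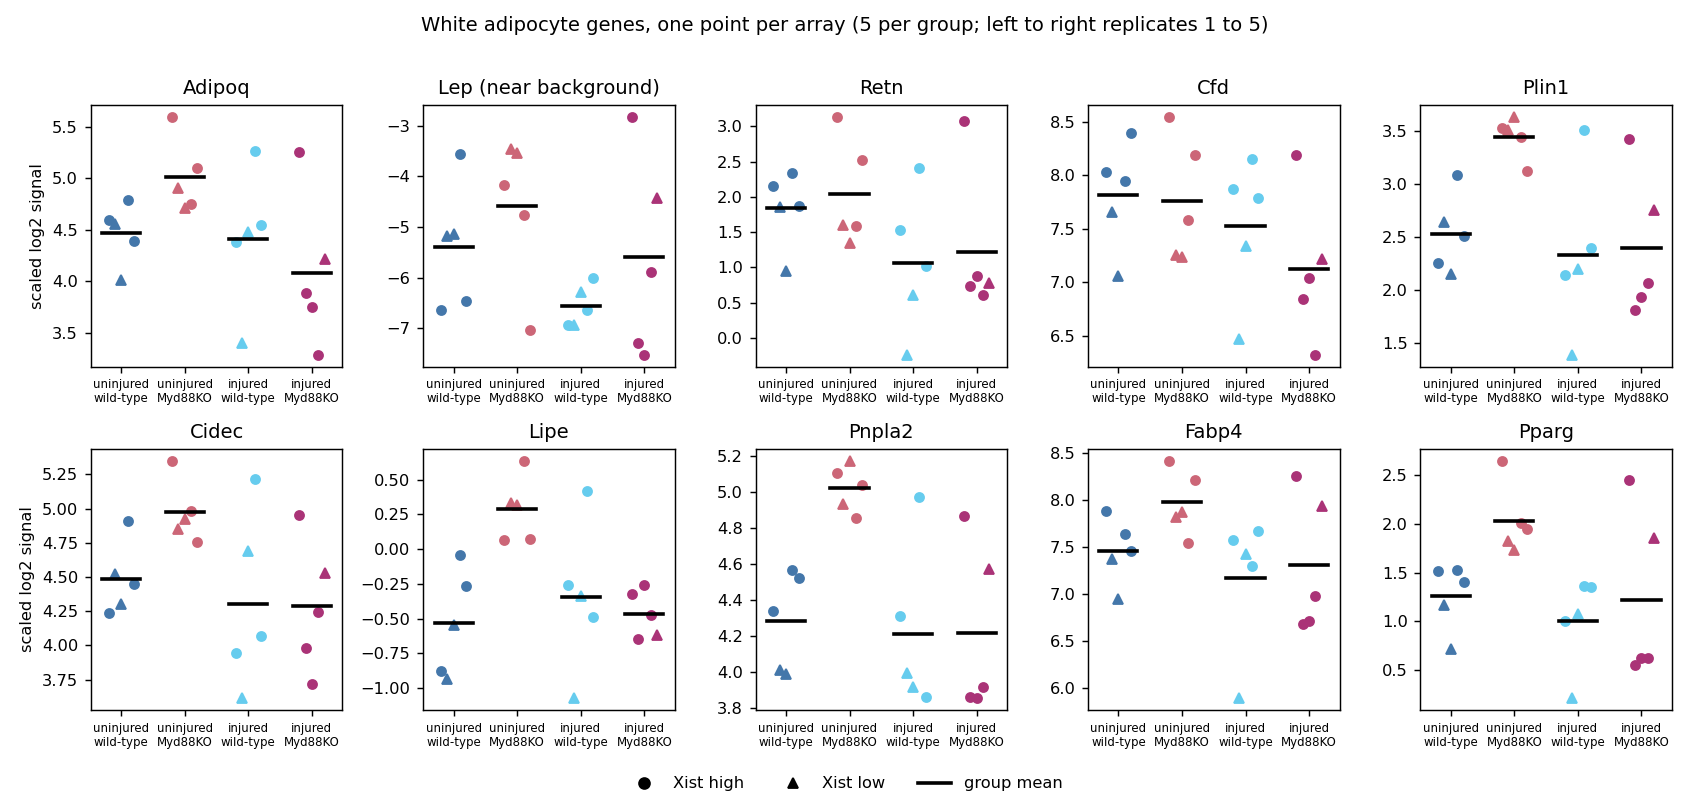
Scaled log2 signal (y axis) of the brightest probe of each of the 10 genes on each of 20 arrays, by group (x axis), with the group mean as a bar and the Xist class as the marker shape. Plin1, Lipe, Pnpla2 and Pparg show uninjured Myd88KO points that all lie above the uninjured wild-type points, and Lep lies near background.

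In uninjured tracheas, the comparison asked whether loss of Myd88 went with another level of these transcripts. Of the 9 tested genes, 8 had a higher mean (as did 56.7% of all tested probes) and Cfd a lower mean in Myd88KO trachea, with a median log2 difference of 0.54 beside 0.04 over all 26064 tested probes. No member probe, 0 of 14, was called by limma at an adjusted p under 0.01, and 0.384% of all tested probes were. Plin1 was 1.89-fold higher (log2 difference 0.92, SE 0.33, adjusted p = 0.520), Lipe 1.76-fold (0.82, SE 0.22, adjusted p = 0.176), Pparg 1.70-fold (0.77, SE 0.33, adjusted p = 0.785) and Pnpla2 1.67-fold (0.74, SE 0.23, adjusted p = 0.296). These 4 genes did not overlap between the groups, while 1.71% of all tested probes were higher without overlap. The same 4 of 9 had an unadjusted p under 0.05, against 3.82% of all probes in that direction. Adipoq differed by 0.54 (SE 0.33), Fabp4 by 0.52 (SE 0.34, with 0.79 and 0.67 at its other probes) and Cidec by 0.49 (SE 0.27). Cidec was higher on 5 of 5 slides, a count that was not made over all probes. Retn differed by 0.20 (SE 0.50) and Cfd by -0.06 (SE 0.36), so the secreted proteins Retn and Cfd lay closest to no difference, with intervals of -0.85 to 1.25 and -0.82 to 0.70. Within the first scan day (3 arrays a group) 7 of 9 genes were higher, with a median of 0.43, and within the second (2 arrays a group) 9 of 9, with a median of 0.71.

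In Myd88KO tracheas, the comparison asked how the genes stood 3 days after injury. All 9 tested genes had a lower mean in injured than in uninjured Myd88KO trachea, as did 57.7% of all tested probes, with a median log2 difference of -0.81 beside -0.07 over all tested probes. Again 0 of 14 member probes were called, against 0.376% of all probes, and the lowest adjusted p was 0.0561. Plin1 had a log2 difference of -1.05 (SE 0.33, adjusted p = 0.0859), Adipoq -0.93 (SE 0.33, adjusted p = 0.123), Pparg -0.81 (SE 0.33, adjusted p = 0.186), Pnpla2 -0.81 (SE 0.23, adjusted p = 0.0561), Lipe -0.75 (SE 0.22, adjusted p = 0.0718) and Cidec -0.69 (SE 0.27, adjusted p = 0.161). These 6 of 9 genes had an unadjusted p under 0.05, against 12.2% of all probes in that direction. Retn at -0.82 (SE 0.50), Fabp4 at -0.67 (SE 0.34) and Cfd at -0.64 (SE 0.36) did not. This split depended on the fit. With the slide as a block in limma, the unadjusted p was 0.0178 for Fabp4, 0.0306 for Cfd and 0.0537 for Retn. None of these genes was called in that fit, and the share of all probes under 0.05 in it was not counted. All 9 genes were lower on 5 of 5 slides when each injured array was set against the uninjured array of its slide. The share of all tested probes lower on every slide was not counted. The 9 genes also varied together between animals, as given further on, so they are not 9 separate observations. Lipe alone was lower without overlap, as were 2.3% of all probes.

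Replicates 1 and 5 of injured Myd88KO trachea stood above the other 3 of their group in most of these genes, though not in Lipe or Retn. Their weights were 0.31 each when arrays were weighted by how well they fitted their group, the lowest weights of the 20 arrays. With those weights 4 of 14 member probes were called in this comparison, against 8.01% of all probes. They were the probes of Plin1 (log2 difference -1.36, adjusted p = 0.00140), Adipoq (-1.20, adjusted p = 0.00335), Pparg (-1.17, adjusted p = 0.00308) and Pnpla2 (-1.004, adjusted p = 0.00100). Both arrays were scanned on the second day. Within the first scan day, 9 of 9 genes were lower with a median of -0.96, and within the second, 9 of 9 with a median of -0.35. Leaving out either array alone gave no call among the members.

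In wild-type tracheas the same injury gave smaller differences. The median log2 difference of the 9 genes was -0.20 beside 0.00 over all probes, 8 were lower, as were 50% of all tested probes, and Lipe was higher (0.19, SE 0.22). When 1 array was left out, this median ran from -0.35 to -0.0046. Adipoq, Plin1, Fabp4, Pnpla2 and Lipe each changed sign in at least 1 of those fits. None of 14 member probes was called, against 5.26% of all tested probes, and none of the 9 genes had an unadjusted p under 0.05, against 26.4% of all probes. Retn had the lowest value at -0.77 (SE 0.50, adjusted p = 0.348), and its interval ran from -1.82 to 0.28. Adipoq differed by -0.05 (SE 0.33, interval -0.74 to 0.63), which leaves room for changes of either sign. Injured wild-type tracheas spread widely: replicate 2 had the lowest value of its group in 8 of the 9 genes and replicate 4 the highest in 8.

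After injury, Myd88KO and wild-type tracheas were compared in the same genes. Their median log2 difference was 0.0046, with 5 genes higher and 4 lower, from -0.40 (Cfd) to 0.22 (Pparg). None of 14 member probes was called, against 0.38% of all probes, and none of the 9 genes had an unadjusted p under 0.05, against 12.5% of all probes. The direction differed between scan days. Within the first day 9 of 9 genes were lower in Myd88KO trachea with a median of -0.42, and within the second 7 of 9 were higher with a median of 0.64. On the second day the injured Myd88KO arrays were those of replicates 1 and 5.

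The injury response itself was then compared between the genotypes. It was more negative in Myd88KO trachea for all 9 genes and for 58.7% of all tested probes, with a median of -0.55 beside -0.09 over all probes. No member probe was called, and the called share of all probes was 0%. Lipe had the largest difference of responses at -0.94 (SE 0.32, adjusted p = 0.391), and with Pnpla2 at -0.73 (SE 0.32, adjusted p = 0.461) it made up the 2 of 9 genes with an unadjusted p under 0.05, against 6.96% of all probes in that direction. Adipoq at -0.88 (SE 0.46) and Plin1 at -0.85 (SE 0.47) had intervals that included 0. This comparison shares its uninjured Myd88KO and other samples with those above, so its direction is not separate evidence. Marker lists of other tissues, read further on, had medians of -0.85 for macrophage (11 of 12 probes lower) and -0.62 for endothelial probes (10 of 11). Of the 11 endothelial probes, 5 were lower at an unadjusted p under 0.05. The medians were -0.29 for fibroblast and preadipocyte (10 of 11 lower), -0.40 for cartilage, -0.04 for muscle, 0.01 for brown adipocyte and 0.23 for airway epithelium probes. None of these probes was called.

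**Figure D2:**
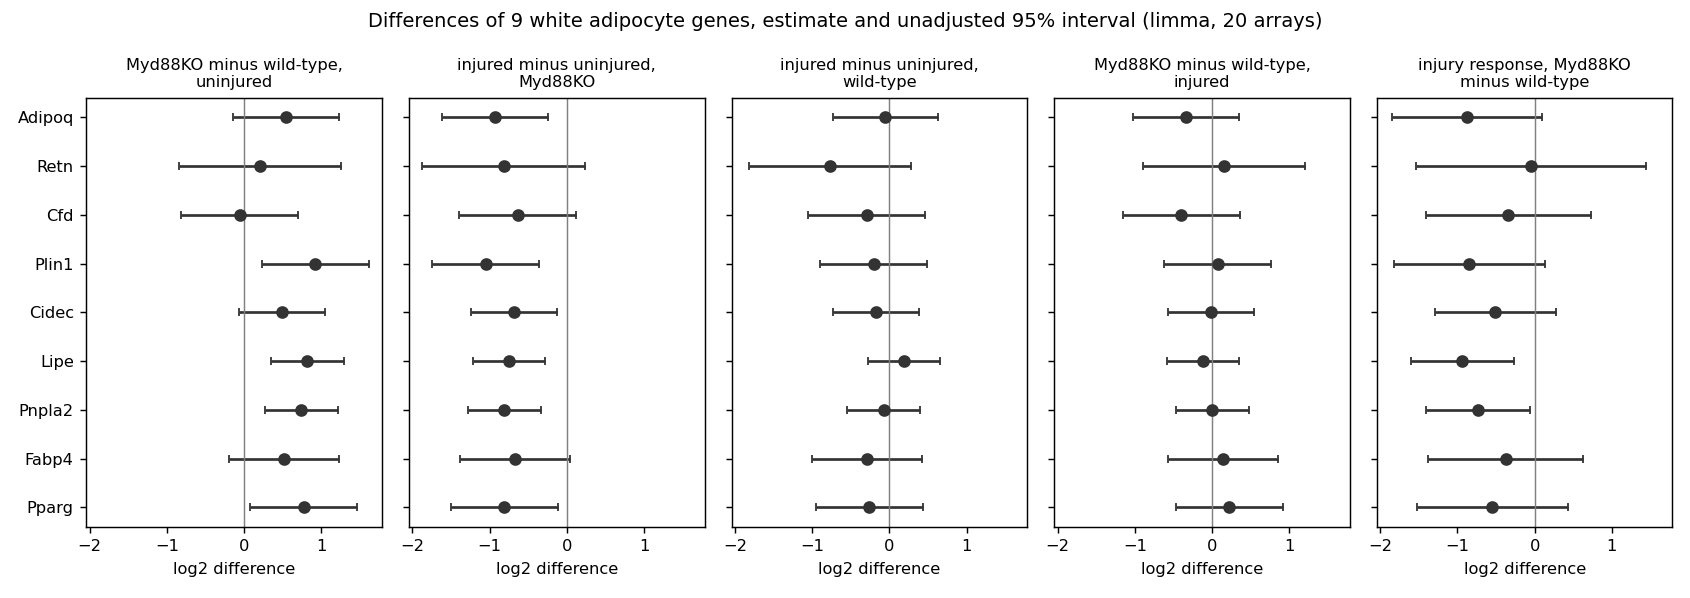
Log2 differences (x axis) of 9 genes (y axis) in each comparison, as the limma estimate with its unadjusted 95% interval. In the second panel all 9 estimates lie below 0, from -1.05 to -0.64, and in the fourth they lie on both sides of 0.

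The genes varied together between animals of 1 group. After the group means were taken out, the 36 pairs of 9 genes correlated at 0.21 to 0.92 over 20 arrays, with a median of 0.72. Adipoq and Retn had the highest value (0.92), followed by Retn and Cfd (0.91), Fabp4 and Pparg (0.90) and Plin1 and Cidec (0.89). Lipe followed the rest least, with a median of 0.41 to the other 8 genes. The arrays are shared between the genes, so these values describe the 20 tracheas and are not independent tests.

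**Figure D3:**
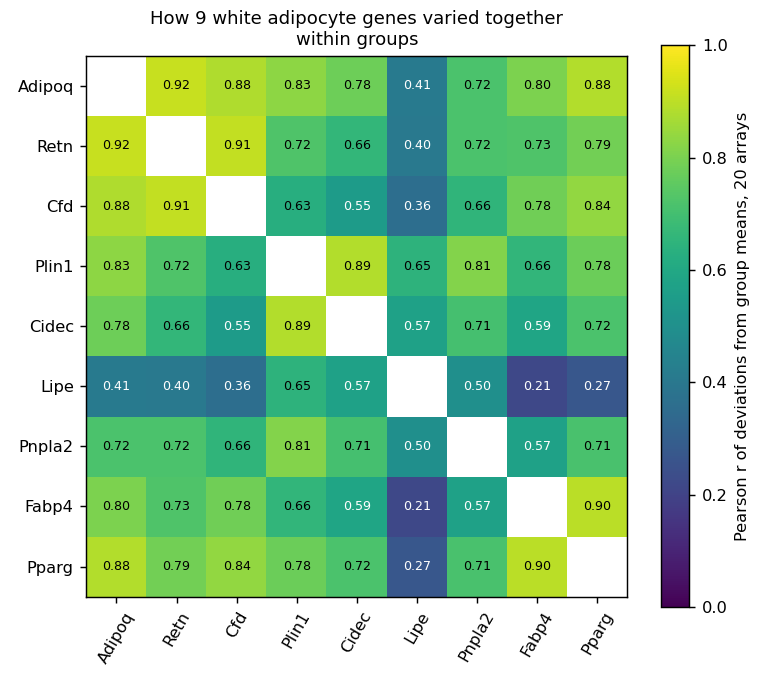
Pearson correlation of the deviations from group means between each pair of 9 genes (both axes) over 20 arrays, shown as colour and number. The secreted proteins Adipoq, Retn and Cfd form a bright block at 0.88 to 0.92, and the row of Lipe is the darkest.

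The mean of the 9 genes summarises this shared variation. It was 3.79, 3.65, 3.29, 4.09 and 3.86 in uninjured wild-type tracheas and 4.71, 4.12, 4.11, 4.15 and 4.33 in uninjured Myd88KO tracheas. It was 3.61, 2.63, 3.49, 4.29 and 3.58 in injured wild-type tracheas and 4.46, 3.08, 3.14, 3.06 and 3.69 in injured Myd88KO tracheas. All 5 uninjured Myd88KO values lay above the 5 uninjured wild-type values, and the injured groups spread more widely. The SD was 0.30 and 0.26 in the uninjured wild-type and Myd88KO groups and 0.59 and 0.60 in the injured ones (n = 5 each).

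This mean was read by Xist class. In uninjured wild-type trachea the 3 Xist-high arrays had means of 3.79 to 4.09 and the 2 Xist-low arrays 3.29 to 3.65. The same order of this mean held in uninjured Myd88KO trachea (4.15 to 4.71 against 4.11 to 4.12) and in injured wild-type trachea (3.58 to 4.29 against 2.63 to 3.49). It did not hold for every gene. Of the 10 genes, Lep included, the Xist-high arrays had the higher mean in 9 in uninjured wild-type and 10 in injured wild-type trachea. In uninjured Myd88KO trachea they did so in 6, and in injured Myd88KO trachea in 2. In injured Myd88KO trachea the single Xist-low array, at 3.69, lay inside the range of the 4 Xist-high arrays. In the other 3 groups the Xist-low arrays were replicates 2 and 3, from the same 2 slides, both of the first scan day, so Xist class and slide cannot be told apart there. The uninjured groups and injured wild-type trachea held 3 Xist-high arrays each, and injured Myd88KO trachea 4. With the Xist signal as a covariate, the median difference was 0.55 for uninjured genotype and -0.85 for injury in Myd88KO trachea, close to the values without it, and no member was called.

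**Figure D4:**
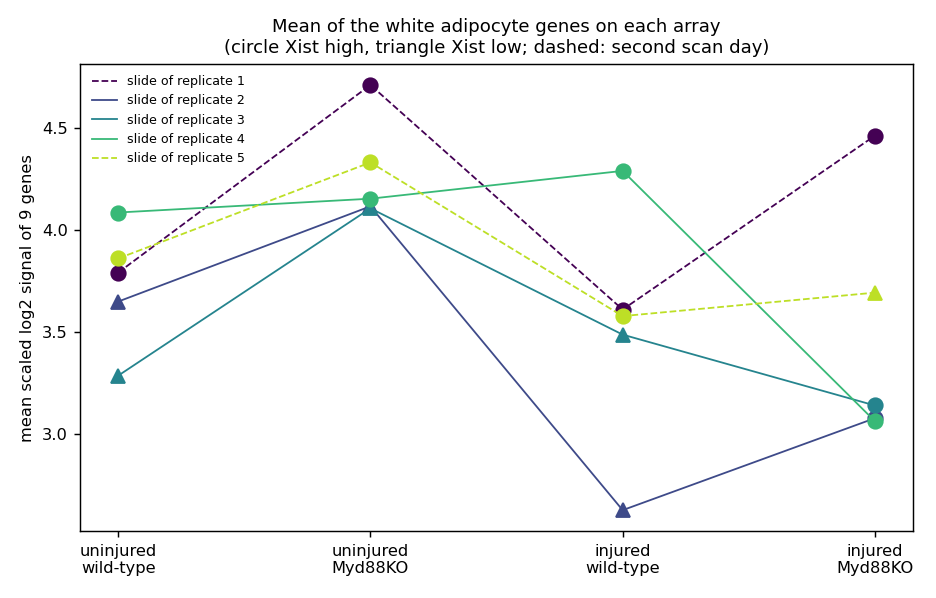
Mean scaled log2 signal of 9 genes (y axis) on each array, by group (x axis), with a line for the 4 arrays of each slide, circles for Xist-high and triangles for Xist-low arrays, and dashed lines for the second scan day. Uninjured Myd88KO arrays lie between 4.11 and 4.71, above all uninjured wild-type arrays, and injured Myd88KO arrays split into 3 near 3.1 and the replicates 1 and 5 above them.

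Genes with more than 1 probe were compared within the gene. The 2 Retn probes followed each other at 0.997 after group means were removed, and the 3 Fabp4 probes at 0.936 to 0.976. One Fabp4 probe had no usable value on replicate 1 of uninjured and of injured wild-type trachea, where its spot was an outlier, and its fits left those arrays out. The 2 Lipe probes followed each other at 0.785. The 2 Pnpla2 probes did so at only 0.110. The second Pnpla2 probe read 0.25 and 0.66 on replicates 1 and 5 of uninjured wild-type trachea and 1.43 to 1.84 on the other 3, and in uninjured Myd88KO trachea 1.20 and 1.05 against 2.31 to 2.53. Its lower arrays were those of the second scan day. Its difference between uninjured genotypes, 0.74 (SE 0.40), was near that of the brighter probe. After injury in Myd88KO trachea it gave -0.60 (SE 0.40) and was lower on 4 of 5 slides, beside -0.81 (SE 0.23) at the brighter probe.

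Other genes of the adipocyte programme were read from a list of 34 that covers fatty acid uptake, triglyceride synthesis, droplet proteins and the transcription factors upstream. Of these, 31 genes were well above background on all 20 arrays, and 56 probes of 32 genes were tested. Adrb3, the beta-3 adrenergic receptor that triggers lipolysis in fat, was above background on none. In uninjured tracheas 42 of 56 probes were higher in Myd88KO (56.7% of all probes were), with a median of 0.18, and 0 were called. Gpd1, which makes glycerol phosphate for triglyceride, differed by 1.11 (SE 0.34, adjusted p = 0.296) and was higher in every Myd88KO than in every wild-type sample. Thrsp, a lipogenic regulator, differed by 1.04 (SE 0.35) and Tusc5, a protein of glucose uptake in fat, by 0.84 (SE 0.30). Srebf1, the sterol and fatty acid synthesis factor, had the lowest adjusted p of the list at 0.0115 with a difference of 0.73 (SE 0.14), and is named after its values were seen.

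In Myd88KO tracheas 48 of 56 of these probes were lower after injury (57.7% of all probes were), with a median of -0.37, and 0 were called. That count did not hold with array weights or without injured Myd88KO replicate 1 or 5, where some were called, as given in the last section. Thrsp had a difference of -1.64 (SE 0.35, adjusted p = 0.0191), Dgat2, the last enzyme of triglyceride synthesis, one of -1.35 (SE 0.28, adjusted p = 0.0148) and Gpd1 one of -1.16 (SE 0.34, adjusted p = 0.0670). All 3 Dgat2 probes were lower without overlap. In wild-type tracheas 38 of 56 were lower after injury (50% of all probes were), with a median of -0.19. Of the 56, 1 was called, a share below the 5.26% of all probes. It was a probe of Cd36, the fatty acid transporter that macrophages and endothelium also carry, which fell by 1.23 on the log2 scale (SE 0.28, adjusted p = 0.00647). The other Cd36 probe had a difference of -1.27 (SE 0.34, adjusted p = 0.0174) and was not called. The call was lost with no filter on dim probes, with only the 2 groups compared, with the methods' one-way test and when any 1 of 5 wild-type arrays was left out: replicates 1, 2 or 5 of the uninjured or 2 or 3 of the injured group. Nnat, a small membrane protein, had a difference of 1.26 (SE 0.37, adjusted p = 0.0296) and the leptin receptor Lepr one of -1.05 (SE 0.27, adjusted p = 0.0158), beside -0.57 (SE 0.23) at its other probe.

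Between injured groups the median of the partners was -0.02 and 0 of 56 were called. The 3 furthest from 0 were Nnat at -0.92 (SE 0.37), Lepr at 0.85 (SE 0.27) and Cavin1, which builds caveolae, at -0.50 (SE 0.25). The other Lepr probe gave 0.06 (SE 0.23), and the other 3 Cavin1 probes gave -0.17 to -0.21. For the difference of responses the median was -0.27, with 0 called, and Lepr at 1.27 (SE 0.39), Nnat at -1.22 (SE 0.52) and Tusc5 at -0.94 (SE 0.42) lay furthest from 0. The other Lepr probe gave 0.31 (SE 0.32).

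Markers of other tissues were read beside the members. Of 8 brown adipocyte markers, 7 were well above background on all 20 arrays, among them Ucp1, the uncoupling protein that defines brown fat, so the members do not tell white from brown adipocytes here. Ucp1 read 1.498, 2.37, 0.66, 3.09 and 2.30 in uninjured wild-type and 3.95, 4.50, 4.18, 5.06 and 4.34 in uninjured Myd88KO tracheas, a difference of 2.42 (SE 0.68, adjusted p = 0.199). Elovl3, a fatty acid elongase above background on 17 arrays, differed there by 2.61 (SE 0.67, adjusted p = 0.121) and Cidea, a droplet protein of brown fat, by 1.54 (SE 0.45, adjusted p = 0.233). These 3 genes did not overlap between the uninjured groups. Dio2, the deiodinase that activates thyroid hormone, went the other way at -0.62 (SE 0.32). The rest of the list differed less. Cox7a1 and Cox8b, the markers with the highest mean signal, gave 0.04 (SE 0.41) and 0.41 (SE 0.47). Prdm16 gave 0.19 (SE 0.18), and the probes of Ppargc1a gave 0.02 (SE 0.26) and -0.06 (SE 0.23). The brown adipocyte probes had a median difference of 0.19 for uninjured genotype, -0.78 for injury in Myd88KO and -0.76 for injury in wild-type trachea, with 0 of 9 called in each. Between injured groups the median was 0.33, with 3 of 9 higher at an unadjusted p under 0.05 and 0 called (lowest adjusted p = 0.0199, Elovl3). The summed log2 level of the 8 markers was 7.27 to 8.61 in uninjured wild-type, 8.11 to 8.92 in uninjured Myd88KO (n = 4, without replicate 4, where Cox8b had no usable value), 6.78 to 7.80 in injured wild-type and 6.57 to 8.83 in injured Myd88KO trachea. This sum was mostly the signal of Cox7a1 and Cox8b, so it does not give the level of Ucp1 or Elovl3. How far it followed the muscle markers read next was not tested.

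Skeletal muscle and thyroid were present in the dissected tissue as well. All 8 muscle markers were above background on every array, among them Tnni2, Myh4 and Acta1, and their summed log2 level was 10.46 to 10.91 in uninjured wild-type (n = 4), 10.30 to 11.22 in uninjured Myd88KO, 9.60 to 10.83 in injured wild-type and 9.56 to 10.46 in injured Myd88KO trachea (n = 4). Replicate 3 of uninjured wild-type trachea and replicate 5 of injured Myd88KO trachea were left out of these sums, since the spot of Myh4 or of Acta1 was an outlier there. Without that gene these 2 arrays still summed to 9.88 and 11.09. The second value lies above the range given for injured Myd88KO trachea, so that range is too low at its upper end. Of 6 thyroid markers 3 were above background on every array, among them thyroglobulin (Tg), the precursor of thyroid hormone. Thyroid probes had a median difference of -1.19 for injury in Myd88KO, -0.10 for injury in wild-type and 0.30 for uninjured genotype. It was -0.57 between injured groups and -0.94 for the difference of responses, with 6 of 6 lower in both, and 0 of 6 were called in each of these 5 comparisons. The summed thyroid level was 6.57 to 8.48 in uninjured wild-type, 6.44 to 8.89 in uninjured Myd88KO, 6.96 to 8.65 in injured wild-type and 6.59 to 7.77 in injured Myd88KO trachea. How much adherent tissue contributed to the member differences was not tested.

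Macrophage markers were read because macrophages carry Fabp4, Pparg and Cd36. In wild-type trachea 4 of 12 macrophage probes were called higher after injury, with a median of 1.54, where 5.26% of all probes were called in either direction. In Myd88KO trachea 0 of 12 were called, with a median of 0.96. Of the 12 probes, 10 had a higher mean after injury in each genotype, and both probes of the lysozyme gene Lyz2 had a lower one. The summed macrophage level was mostly the signal of Lyz2, at 8.23 to 9.06 in uninjured wild-type, 8.10 to 8.90 in uninjured Myd88KO, 8.34 to 9.01 in injured wild-type and 8.12 to 8.83 in injured Myd88KO trachea. Without Lyz2 the other 7 genes summed to 2.46 to 2.88, 2.21 to 3.21, 3.84 to 5.18 and 2.31 to 4.62 in the same groups, so injured and uninjured wild-type tracheas did not overlap. Their part in the member differences was not tested.

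Endothelial probes, 11 of 8 genes, had medians of 0.38 after injury in wild-type and -0.17 in Myd88KO trachea, with 0 called. Fibroblast and preadipocyte probes were lower after injury in Myd88KO trachea in 9 of 11, with a median of -0.42, 4 lower at an unadjusted p under 0.05 and 0 called (lowest adjusted p = 0.0275). Muscle probes were lower there in 12 of 14, with a median of -0.29 and 0 called. After injury in wild-type trachea the medians were 0.16 for fibroblast and preadipocyte probes and -0.35 for muscle probes, lower in 14 of 14, again with 0 called. Airway epithelium probes had injury medians of -0.37 in wild-type and -0.02 in Myd88KO trachea. Of these 7 probes, 1 was called lower in each genotype. It was Scgb1a1, at -7.91 (adjusted p = 1.05e-05) in wild-type and -6.24 (adjusted p = 0.000690) in Myd88KO trachea. In uninjured genotype the medians were -0.17 for macrophage, 0.18 for endothelial, -0.09 for fibroblast and preadipocyte, 0.07 for muscle, 0.05 for airway epithelium and -0.31 for cartilage probes, with 0 called in each of these 6 lists. The members had a median of 0.54 there by gene. Between injured groups the medians were -0.75 for macrophage (12 of 12 lower), -0.44 for endothelial (10 of 11) and -0.45 for fibroblast and preadipocyte probes (11 of 11). They were -0.61 for cartilage (6 of 6 lower), 0.04 for muscle and 0.28 for airway epithelium probes, and 0 were called in each list.

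**Figure D5:**
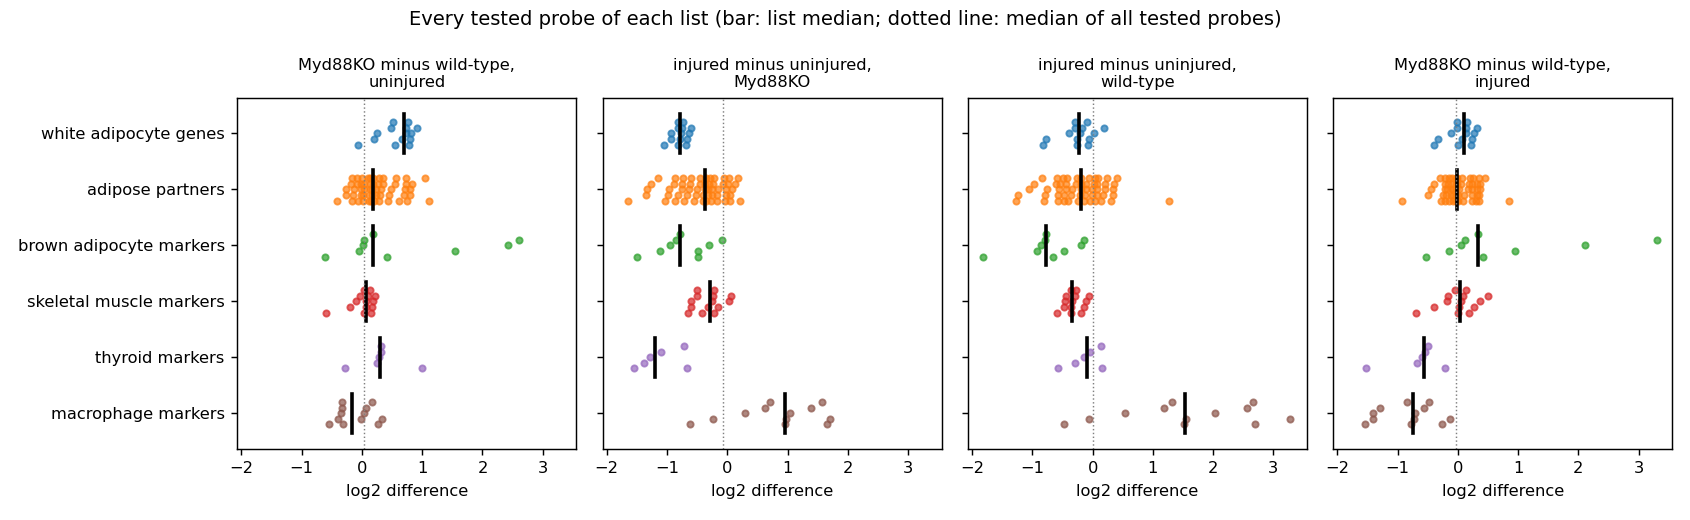
Log2 difference (x axis) of every tested probe of the white adipocyte genes and 5 other lists (y axis) in 4 comparisons, with the list median as a bar and the median of all tested probes as a dotted line. The white adipocyte probes lie mostly to the right in uninjured Myd88KO trachea and all to the left after injury in Myd88KO trachea, where all 9 brown adipocyte and 12 of 14 muscle probes also lie below 0 and 10 of 12 macrophage probes above it.

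Outside the members, the genes whose deviations from the group means followed the mean of all 10 genes, Lep included, most closely over 20 arrays were Mrap (Pearson r = 0.968), Clstn3 (0.941), Arxes2 (0.936), Cd1d1 (0.933) and Slc36a2 (0.929). Ephx2 (0.928), Aqp7 (0.917), Nrg4 (0.916), Mogat1 (0.915) and Ghr (0.909) came next. Mrap is the accessory protein of the corticotropin receptor, Aqp7 the glycerol channel of fat cells and Ghr the growth hormone receptor. Lep was not well above background on most arrays, and with Lep left out of the mean the order changed. Clstn3 then came first (0.954), before Aqp7 (0.950) and Cd1d1 (0.946), Mrap had 0.924 and Arxes2 0.909. Slc7a10 stood in place of Mogat1 among the 10 highest genes named through RefSeq, with 2 probes that carry only a name from the array passed over.

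Between uninjured genotypes Mrap differed by 0.73 (SE 0.38, adjusted p = 0.950) and Clstn3 by 0.84 (SE 0.40, adjusted p = 0.892). After injury in Myd88KO trachea Mrap differed by -1.31 (SE 0.38, adjusted p = 0.0627) and Clstn3 by -1.08 (SE 0.40, adjusted p = 0.145), and neither was called.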

How the data were processed

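RNA of 20 whole tracheas was hybridised to Agilent 1-colour arrays of 45018 spots, of which 1639 were controls. The authors deposited the scanner output of Agilent Feature Extraction 9.5.1.1, in which intensity is the background-subtracted Cy3 brightness of a spot, and a value table of the same intensities, rounded, which served as an alternative only. Deposited probability columns flagged spots and were used for no test. The processed intensity was taken to log2, 1960 outlier-flagged spot values were left out, spots of a probe were averaged and the 75th percentile of each array (495 to 972) was subtracted. Probes well above background on at least 10 of 20 arrays were tested, 26064 of 41174. Differences were fitted in limma 3.58.1 (R 4.3.3) with lmFit, contrasts and eBayes on all 4 groups, with Benjamini-Hochberg adjustment over all tested probes of a comparison. Probes were called at an adjusted p under 0.01, the threshold of the study's methods, and intervals are 95% without adjustment.

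The number of arrays limits the precision. On simulated arrays of the uninjured genotype comparison with 26064 probes, 33% of changes of 1 on the log2 scale and 93% of changes of 2 were recovered. The members, gene lists and promoter windows were chosen with earlier results of these data known. Named genes were all members, the partners that were called or were the 3 furthest from 0 in a comparison, up to 3 of the highest genes of another list, and the 10 genes most like the member mean. Srebf1, Adrb3, Ucp1, Elovl3, Dio2, Prdm16, Ppargc1a, Lyz2 and Slc7a10 fell outside this rule and were named after their values were seen. Same-numbered arrays shared a slide: their deviations correlated at 0.25 to 0.48 in 5 of 5 pairs between uninjured genotypes, but not above 0.1 in every pair of the other comparisons. Slide, scan day, Xist signal, array weights, another background correction, normalization, scaling, filter, table and test, and leaving out each array were tried as alternatives. Gene symbols came from the array and were updated through the RefSeq gene table (GRCm38.p6), by accession for 22951 probes.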

Additional observations from a re-analysis of the deposited data

Results flagged for a closer look

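In 2 of 40 groups of 5 values, each a gene in a group, 1 sample stood apart from the rest by its gap to the nearest value, divided by the range of the group. Chance gives about 1 in 20 such groups, so this number is what chance would give. Fabp4 in injured wild-type replicate 2 read 5.89 with the nearest sample at 7.30, a gap of 0.790 of the range. Retn in injured Myd88KO replicate 1 read 3.08 with the nearest sample at 0.88, a gap of 0.889 of the range.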

How the results depend on the processing

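Over the alternatives, the number of member probes called stayed at 0 in every comparison except injury in Myd88KO trachea with array weights, where it was 4. Over the processing alternatives, the median of the 9 genes kept its sign in uninjured genotype (0.38 to 0.57), injury in Myd88KO (-0.998 to -0.74), injury in wild-type (-0.27 to -0.14) and the difference of responses (-0.76 to -0.51), but not between injured groups (-0.20 to 0.10). When 1 array was left out it ranged from 0.40 to 0.62, -0.97 to -0.66, -0.35 to -0.0046, -0.85 to -0.397 and -0.19 to 0.195, in the same order. With the slide as a replicate block, Lipe had an adjusted p of 0.0566 for uninjured genotype and 0.0268 for injury in Myd88KO, and the block changed no member call. The count of adipose partners called for injury in wild-type trachea, 1 in the report, was 2 with quantile normalization, with the replicate block and with scan day as a block, 5 with array weights, and 0 with no filter, with only the 2 groups compared and with the methods' one-way test. It was 0 to 1 when 1 array was left out, and 0 without replicates 1, 2 or 5 of uninjured or 2 or 3 of injured wild-type trachea. For injury in Myd88KO trachea, 0 in the report, it was 14 with array weights, 2 with scan day as a block and 1 with normexp, and 0 to 5 when 1 array was left out, with 2 without injured Myd88KO replicate 1 and 5 without replicate 5. For uninjured genotype it was 1 with normexp, with array weights and with scan day as a block. The cause was not tested.

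Single values near 0 changed sign, none of them called. Adipoq for injury in wild-type was 0.013 when arrays were scaled to the median, and Retn for uninjured genotype was -0.13 with array weights. Between injured groups Cidec was 0.083 with quantile normalization, Plin1 -0.16, Fabp4 -0.30, Retn -0.079, Pnpla2 -0.12 and Pparg -0.22 with array weights, and Retn -0.083 and Pnpla2 -0.039 with the Xist covariate. The Retn difference of responses was 0.039 with quantile normalization and 0.053 with array weights. When 1 array was left out, values for injury in wild-type ran from -0.26 to 0.20 (Adipoq), -0.50 to 0.032 (Plin1), -0.42 to 0.032 (Fabp4), -0.0047 to 0.37 (Lipe) and -0.27 to 0.012 (Pnpla2). For uninjured genotype they ran from -0.073 to 0.37 (Retn) and -0.25 to 0.086 (Cfd). Between injured groups they ran from -0.19 to 0.37 (Plin1), -0.18 to 0.30 (Fabp4), -0.31 to 0.49 (Retn), -0.16 to 0.20 (Pnpla2), -0.19 to 0.21 (Cidec), -0.30 to 0.074 (Lipe) and -0.086 to 0.39 (Pparg), and for the difference of responses from -0.51 to 0.29 (Retn). Over all probes, the number called for injury in Myd88KO ranged from 0, with only the 2 groups compared, to 2088, with array weights. Lep signal lay too near background for any fold.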
